A study of Mus musculus with 4 samples.

Results

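The subject is the set of nuclear genes that encode subunits of the oxidative phosphorylation (OXPHOS) complexes I, III, IV and V. Members were chosen by name only: Ndufa, Ndufb, Ndufc, Ndufs and Ndufv followed by a number, Cox4 to Cox8 with any suffix, names that start with Uqcr or Atp5, and Cyc1. The rule found 80 genes among 22739 named genes, of which 36 belong to complex I, 9 to complex III, 18 to complex IV and 17 to complex V. The source of the RNA was CCE, a line of mouse embryonic stem (ES) cells with a 129SV background, kept on gelatin with serum and LIF, the cytokine that holds them undifferentiated. Polyadenylated transcripts were read by RNA-seq. Knockdown cells had a short hairpin that targets Tex10 (shTex10, 2 libraries), and control cells had a hairpin that targets firefly luciferase, which is not a mouse gene (shLuci, 2 libraries). All 4 libraries come from the same line and medium and from hairpin-treated cells, and the sources used here give neither the hairpin sequences nor the time after delivery. Effects of the hairpins other than through Tex10 cannot be told apart from its loss.

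OXPHOS takes place at the inner membrane of the mitochondrion. Complex I takes electrons from NADH, complex III passes them from ubiquinol to cytochrome c, complex IV passes them to oxygen, and complex V (ATP synthase) uses the proton gradient so formed to make ATP. Each complex except complex II mixes subunits encoded in mitochondrial DNA with subunits encoded in the nucleus, and the nuclear ones are translated in the cytosol and imported. Mouse ES cells rely on glycolysis to a large extent while keeping working mitochondria, and the nuclear subunit genes are transcribed in nearly every cell type. The mitochondrial genome has only 1 row in the tables, without a gene name, and that row was listed at 0 in every library, so the mitochondrially encoded subunits could not be read.

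Values are FPKM, fragments scaled by transcript length and by the mapped fragments of the library, as the authors deposited them. The summed FPKM of named genes was 525878 and 537692 in the shTex10 libraries, against 613642 and 632067 in the shLuci libraries, and the number of named genes at 1 FPKM or more ran from 11533 to 12003. Tex10 itself measured 11.6 and 13.4 FPKM in the shTex10 libraries, against 77.3 and 82.1 FPKM in the shLuci libraries. The 8 ES markers listed (Pou5f1, Nanog, Sox2, Zfp42, Esrrb, Klf4, Dppa5a and Sall4) were over 1 FPKM in every library, and 5 of them, Pou5f1, Nanog, Zfp42, Esrrb and Klf4, were called lower. Pou5f1, for one, was at 599.8 and 549 FPKM in shTex10, against 938 and 848 FPKM in shLuci. The summed level of all 8 was 3935 and 4319.9 FPKM in shTex10, against 4684 and 5130.2 FPKM in shLuci, most of it from Dppa5a, which was not called. The part of this fall of ES markers in the changes of OXPHOS genes was not tested. The 7 fibroblast markers summed to 42.6 and 31.5 FPKM in shTex10, against 36.9 and 28.4 FPKM in shLuci, mainly from Col1a1 and Col1a2. Of these markers Col3a1, Lum and Dcn stayed under 1 FPKM in every library, and Col1a2 was called lower. In bulk RNA, fewer cells that express a gene and less of its RNA per cell cannot be told apart. The design text speaks of biological replicates without naming separate cultures. All p-values therefore reflect only how far these particular libraries spread.

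Transcripts of the OXPHOS subunits were mostly lower in shTex10, by modest amounts, with a few members that stood well away from the rest. Of the 80 members, 77 had a mean of at least 1 FPKM and were tested: 42 were called lower, 1 higher and 34 did not pass (limma on log2(FPKM + 1), Benjamini-Hochberg adjusted p under 0.05 over all 11883 genes tested). Among all genes tested, 31.8% were called lower and 19.8% higher by the same rule. Abundant genes were called lower more often than that: of 1769 other genes with a mean of at least 50 FPKM, 50.6% were called lower and 9.78% higher. Of the 70 members at that level, 42 (60.0%) were called lower and 1 higher. Both shTex10 libraries lay under both shLuci libraries for 52 tested members and above them for 7, while the groups overlapped for 18. Over all genes tested these separations were 48.1% downwards and 28.3% upwards.

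The median log2 change (shTex10 minus shLuci) of the 77 members was -0.33, against -0.14 over all genes tested and -0.35 over the other genes of at least 50 FPKM. The set as a whole therefore lay about where other abundant transcripts lay. The named FPKM summed to less in shTex10, and these medians moved with the scaling of the libraries. For the members the median was -0.33 as deposited, -0.11 after rescaling to the same named sum and -0.049 after quantile normalization. Over all genes tested the median was -0.14 as deposited, 0.064 after rescaling to the same named sum and -0.075 after quantile normalization. Relative to all genes the members thus stood at -0.20 as deposited, at -0.17 after the named-sum rescaling and at 0.026 after quantile normalization, where the sign turned. The named-sum rescaling called 13 members lower and 7 higher, where all genes gave 16% lower and 27.4% higher. Quantile normalization called 7 lower and 10 higher, where all genes gave 24.5% and 20.2%. Setting all libraries to the same median called 28 members lower and 3 higher, where all genes gave 26.8% lower and 21.7% higher. Only 8 members were called in the same direction as deposited, after the named-sum rescaling and after quantile normalization: Atp5g1, Atp5g3, Atp5c1, Cox5a, Uqcrq, Uqcrfs1 and Ndufb10, lower, and Cox6b2, higher. Each of these 8 calls also held when any 1 library was left out. Each was lost when every library was set to an equal total over all rows, unnamed ones included. That scaling called 0 members, 2% of all genes lower and 5.55% higher, while the median of the members stayed at -0.33. The totals over all rows were 1.80e+06 and 1.72e+06 in the shTex10 libraries, against 1.40e+06 and 2.22e+06 in the shLuci libraries, so this scaling moves the 2 shLuci libraries apart.

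**Figure D1:**
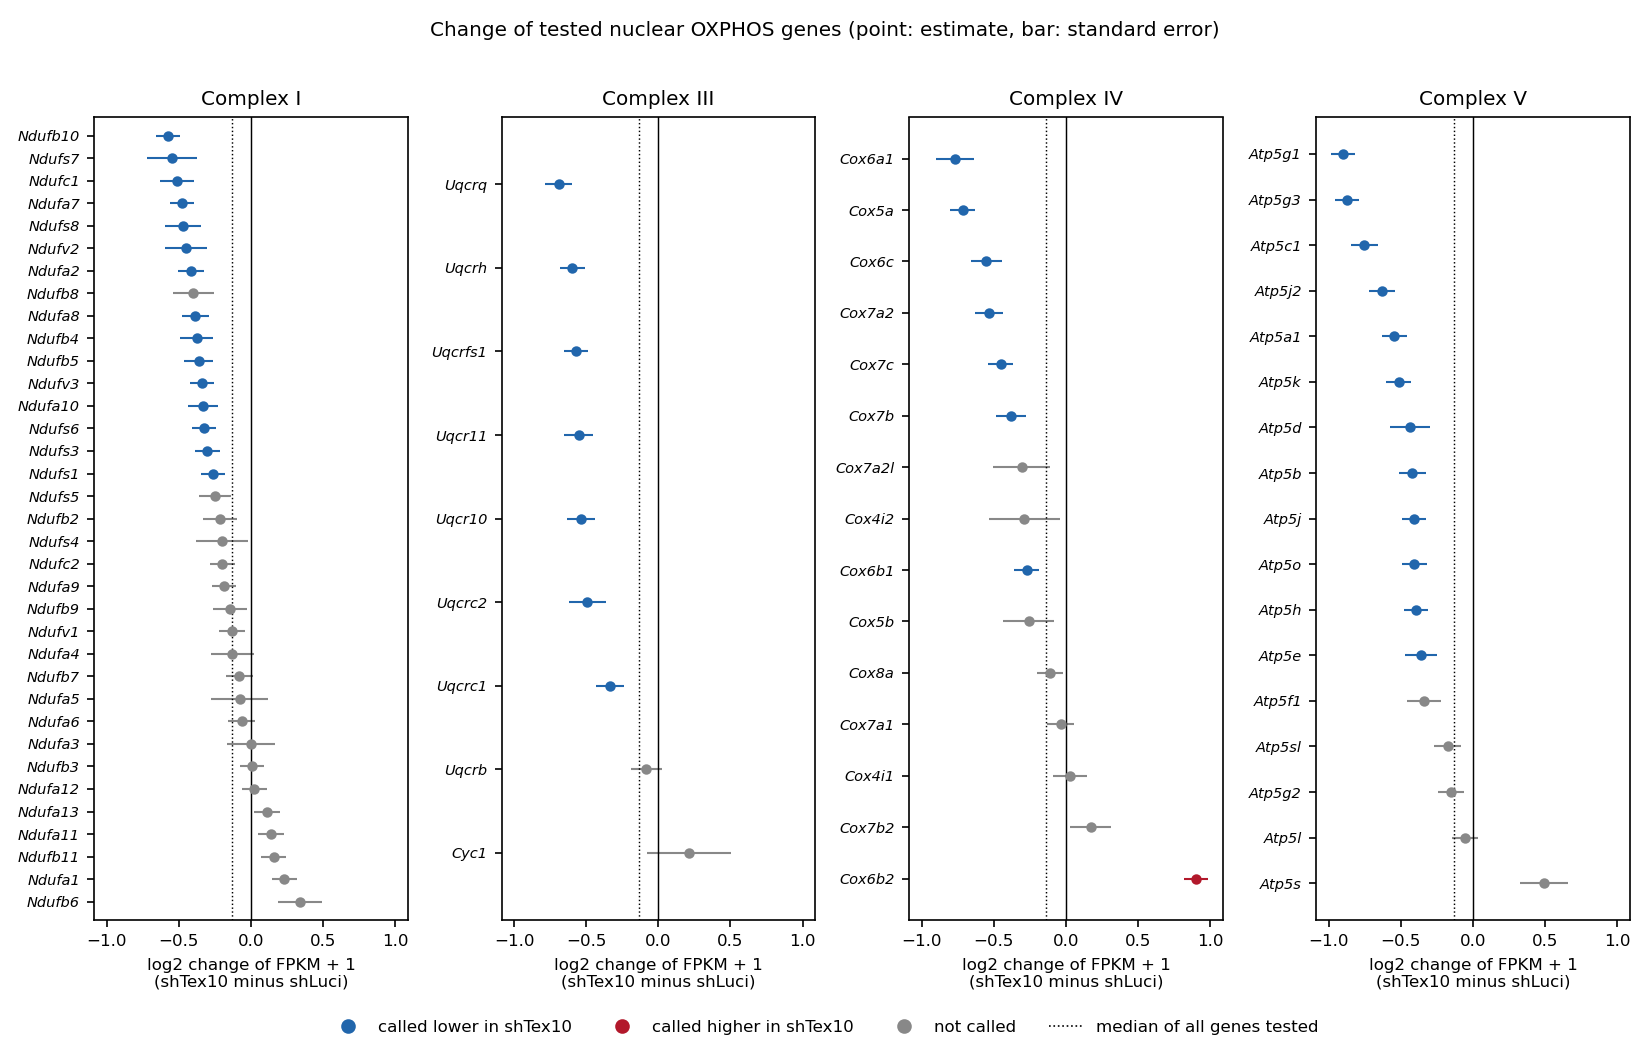
Log2 change of FPKM + 1 (shTex10 minus shLuci, x axis) of 76 tested members, by complex, with standard errors as bars. Blue points were called lower, the red point higher and grey points not called, and the dotted line marks the median of all genes tested (-0.14). Complex I spreads across 0, most of complex III lies between -0.69 and -0.33, and Cox6b2 stands alone on the right of complex IV.

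**Figure D2:**
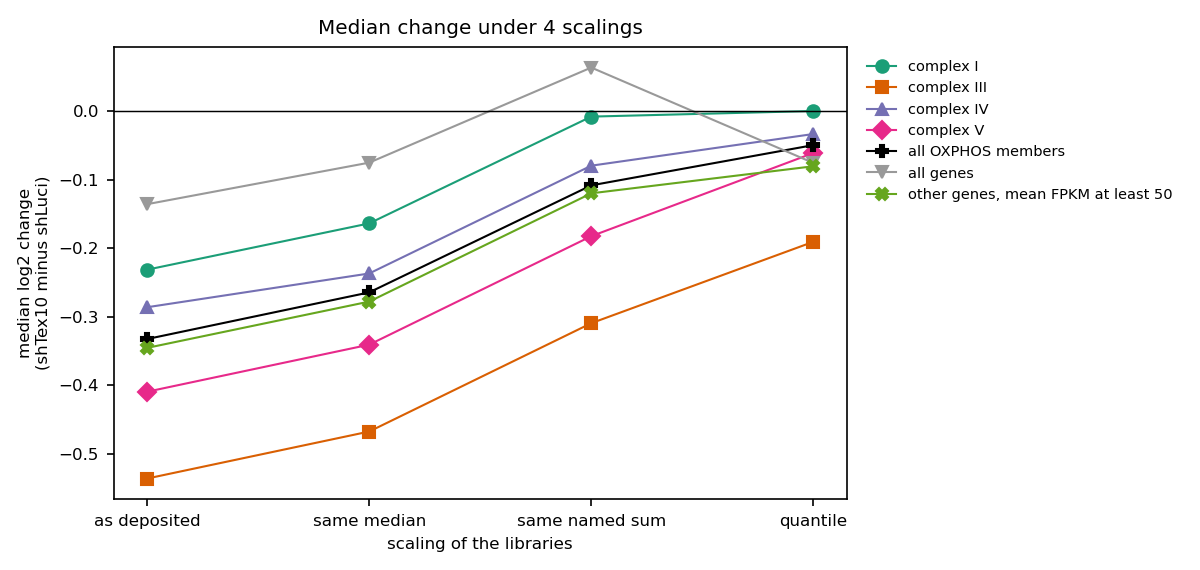
Median log2 change (shTex10 minus shLuci, y axis) of each complex, of all members, of all genes tested and of other genes with a mean of at least 50 FPKM, under 4 scalings of the libraries (x axis). The members follow the other abundant genes at each scaling, complex III is lowest throughout, and complex I comes to 0 under the 2 scalings on the right.

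Complex I, the NADH dehydrogenase, held genes on both sides of 0. Of its 36 genes, all tested, 16 (44.4%) were called lower, 0 higher and 20 did not pass. All genes tested gave 31.8% lower, and other genes of at least 50 FPKM gave 50.6%. The median log2 change of complex I was -0.23 as deposited, -0.0076 after rescaling to the same named sum and 0.00059 after quantile normalization. Leaving out a library lowered the count of 16 to 8 without shTex10 replicate 1, to 10 without shTex10 replicate 2, to 8 without shLuci replicate 1 and to 6 without shLuci replicate 2. Mean levels over the 4 libraries ran from 21.4 FPKM for Ndufa11 to 344 FPKM for Ndufa4, with a median of 94.98 FPKM.

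The 7 core subunits carry the flavin and the iron-sulfur clusters or form the ubiquinone site, and have relatives in bacteria. As deposited, 6 of them fell (85.7%, against 31.8% of all genes and 50.6% of other genes of at least 50 FPKM). The other, Ndufv1, did not pass. After the named-sum rescaling and after quantile normalization 0 of the 7 were called lower, where all genes gave 16% and 24.5%. Ndufs7, whose iron-sulfur cluster hands electrons to ubiquinone, measured 67.0 and 54.1 FPKM in the shTex10 libraries, against 102 and 76.4 FPKM in the shLuci libraries. Both control libraries lay above both knockdown libraries, but the replicates of each group were far apart (limma, log2 change -0.55, SE 0.17, adjusted p = 0.0426). Ndufs8, another iron-sulfur subunit, was at 60.8 and 50.2 FPKM in the shTex10 libraries, against 81.4 and 72.9 FPKM in the shLuci libraries (limma, log2 change -0.47, SE 0.12, adjusted p = 0.0233). Ndufv2, an iron-sulfur subunit of the NADH-binding module, was at 42.0 and 52.8 FPKM in the shTex10 libraries, against 59.5 and 70.3 FPKM in the shLuci libraries (limma, log2 change -0.45, SE 0.14, adjusted p = 0.0446). In these 3 genes the groups did not overlap, but single libraries decided the call. It was lost for Ndufs7 without shLuci replicate 1 (log2 change -0.34), for Ndufs8 without shTex10 replicate 2 (-0.34) or shLuci replicate 1 (-0.39), and for Ndufv2 without shTex10 replicate 1 (-0.29) or shLuci replicate 2 (-0.33).

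Ndufs1 and Ndufs3 changed by less, with closer replicates. For Ndufs3, of the arm that reaches into the matrix, the values were 57.0 and 60.3 FPKM in the shTex10 libraries, against 71.3 and 74.1 FPKM in the shLuci libraries, and for Ndufs1, the largest core subunit, 60.4 and 61.2 FPKM in the shTex10 libraries, against 72.3 and 74.2 FPKM in the shLuci libraries. Ndufs1 kept 83.1% and Ndufs3 80.8% of the shLuci mean (limma, adjusted p = 0.0412 and 0.0305), and both lost their call whenever any 1 library was left out, at log2 changes between -0.34 and -0.24. Ndufv1, the flavoprotein that accepts electrons from NADH, was closest between groups, at 79.7 and 74.6 FPKM in the shTex10 libraries, against 88.1 and 81.2 FPKM in the shLuci libraries (limma, log2 change -0.13, SE 0.093, adjusted p = 0.277). The row of Ndufs3 overlaps those of Kbtbd4 and Ptpmt1, 19.9% of its transcript is shared with Gm12251, and the row of Ndufs1 overlaps Gm11602. Whether reads were assigned by strand is not given in the sources used here.

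Among the 29 accessory subunits, which surround the core and serve its assembly and stability, 10 fell (34.5%, close to the 31.8% of all genes), 0 rose and 19 did not pass. Ndufb10, a membrane-arm subunit, had the smallest p of the complex (row XLOC_012050, mm9 chromosome 17, 24859012 to 24861333). It measured 60.4 and 61.7 FPKM in the shTex10 libraries, against 92.9 and 89.9 FPKM in the shLuci libraries, so 66.8% of the shLuci mean remained (limma, log2 change -0.57, SE 0.083, adjusted p = 0.00330). Replicates differed by far less than the groups. Ndufa7 was at 177 and 176 FPKM in the shTex10 libraries, against 248 and 245 FPKM in the shLuci libraries, a separation as clean as that of Ndufb10 (limma, log2 change -0.48, SE 0.082, adjusted p = 0.00569). Ndufc1 was at 103 and 107 FPKM in the shTex10 libraries, against 136 and 165 FPKM in the shLuci libraries (limma, log2 change -0.51, SE 0.12, adjusted p = 0.0145), and lost its call without shLuci replicate 2 (log2 change -0.38). Ndufa2 was at 74.0 and 75.5 FPKM in the shTex10 libraries, against 105 and 95.4 FPKM in the shLuci libraries (limma, log2 change -0.42, SE 0.092, adjusted p = 0.0131), and lost its call without shLuci replicate 1 (-0.35).

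The other end of complex I held 5 of the 29 accessory genes whose shTex10 libraries both lay above both shLuci libraries. None of them passed the test as deposited, and over all genes tested 28.3% were separated upwards. They were Ndufb6, Ndufa1, Ndufb11, Ndufa11 and Ndufa13. Ndufb6 was at 198 and 156 FPKM in the shTex10 libraries, against 152 and 126 FPKM in the shLuci libraries (limma, log2 change 0.34, SE 0.15, adjusted p = 0.110). Ndufa1, on the X chromosome, was at 91.0 and 88.9 FPKM in the shTex10 libraries, against 74.0 and 79.0 FPKM in the shLuci libraries (limma, log2 change 0.23, SE 0.087, adjusted p = 0.0699), and Ndufb11, also on the X chromosome, at 86.7 and 79.8 FPKM in the shTex10 libraries, against 74.8 and 74.3 FPKM in the shLuci libraries. All 5 were called higher after the named-sum rescaling, and all but Ndufa11 after quantile normalization. These scalings called 17.2% and 20.7% of the accessory genes higher, against 27.4% and 20.2% of all genes. Exact 100-base stretches shared with transcripts of other genes covered 28.2% of the longest coding transcript of Ndufb6, shared with Smim27, and 24.0% of that of Ndufa13, shared with Tssk6, so reads of these 2 genes cannot be fully assigned. Ndufa4, the most abundant gene of the group and by structure a subunit of complex IV, was at 293 and 364 FPKM in the shTex10 libraries, against 323 and 395 FPKM in the shLuci libraries (limma, log2 change -0.13, SE 0.15, adjusted p = 0.502), and the groups overlapped. The remaining 13 accessory genes that did not pass had log2 changes between -0.40 for Ndufb8 and 0.024 for Ndufa12.

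Complex III, the cytochrome bc1 complex, had the lowest median change of the 4 complexes. Of its 9 nuclear genes 7 fell (77.8%, against 31.8% of all genes and 50.6% of other genes of at least 50 FPKM). None rose, and 2, Uqcrb and Cyc1, did not pass. The median log2 change was -0.54 as deposited, -0.31 after rescaling to the same named sum and -0.19 after quantile normalization. The count was 6 without any 1 library, 4 after the named-sum rescaling and 2 after quantile normalization. Uqcrfs1, the Rieske iron-sulfur protein that takes the electron from ubiquinol, measured 70.9 and 68.2 FPKM in the shTex10 libraries, against 103 and 105 FPKM in the shLuci libraries. Its groups were well apart, with 67.1% of the control level left (limma, log2 change -0.57, SE 0.084, adjusted p = 0.00342). Cyc1, the cytochrome c1 gene that passes this electron on, behaved otherwise, at 573 and 331 FPKM in the shTex10 libraries, against 316 and 447 FPKM in the shLuci libraries. The highest and the second lowest of its values were both from shTex10, its SE was the largest of all 77 tested members, and no difference was detectable with all 4 libraries (limma, log2 change 0.21, SE 0.29, adjusted p = 0.565). It was called higher without shTex10 replicate 2 (0.61) or without shLuci replicate 2 (0.46).

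The core proteins Uqcrc1 and Uqcrc2, which face the matrix and carry no electrons, both fell. Uqcrc2 measured 59.9 and 69.5 FPKM in the shTex10 libraries, against 83.5 and 99.9 FPKM in the shLuci libraries (limma, log2 change -0.49, SE 0.13, adjusted p = 0.0221). Uqcrc1 was at 134 and 126 FPKM in the shTex10 libraries, against 173 and 157 FPKM in the shLuci libraries (limma, log2 change -0.33, SE 0.10, adjusted p = 0.0302). The call of Uqcrc2 was lost without shLuci replicate 2 (-0.37), and 22.7% of its transcript is shared with Pdzd9. That of Uqcrc1 was lost without shTex10 replicate 1 (-0.38), shTex10 replicate 2 (-0.29) or shLuci replicate 1 (-0.27). Of the 5 small subunits 4 fell by similar amounts. Uqcrq, which binds near the ubiquinone site, gave 163 and 155 FPKM in the shTex10 libraries, against 271 and 245 FPKM in the shLuci libraries (limma, log2 change -0.69, SE 0.10, adjusted p = 0.00279). Uqcrh, the hinge protein that docks cytochrome c, gave 157 and 154 FPKM in the shTex10 libraries, against 229.6 and 242 FPKM in the shLuci libraries (limma, log2 change -0.60, SE 0.085, adjusted p = 0.00314). Uqcr10 was at 169 and 184 FPKM in the shTex10 libraries, against 244 and 268 FPKM in the shLuci libraries (limma, log2 change -0.54, SE 0.10, adjusted p = 0.00690). In all 3 the libraries of the groups were apart, and Uqcr11 kept 68.2% of its control level. Uqcrb kept 94.0% (limma, log2 change -0.084, SE 0.11, adjusted p = 0.543), and 15.8% of its transcript is shared with annotated copies such as Gm16089.

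Complex IV, cytochrome c oxidase, joined falls of its ubiquitous subunits to the only rise among the members. Of 18 genes, 15 were tested, with 7 falls (46.7%), 1 rise and 7 without a call. The share called lower was 31.8% over all genes and 50.6% over other genes of at least 50 FPKM. The median log2 change was -0.29 as deposited, -0.079 after rescaling to the same named sum and -0.033 after quantile normalization. The 10 ubiquitous subunits, which form the oxidase of most tissues, account for all 7 falls. Cox5a, a matrix-side subunit, measured 216 and 215 FPKM in the shTex10 libraries, against 365 and 345 FPKM in the shLuci libraries (row XLOC_028035, mm9 chromosome 9, 57369039 to 57380233). Knockdown replicates were close to each other and 60.8% of the control mean remained (limma, log2 change -0.71, SE 0.086, adjusted p = 0.00184). Of its transcript, 13.6% is shared with Gm26631. Its partner Cox5b, which binds zinc, was at 212 and 163 FPKM in the shTex10 libraries, against 254 and 194 FPKM in the shLuci libraries, with overlapping groups (limma, log2 change -0.26, SE 0.18, adjusted p = 0.273), and was called lower without shTex10 replicate 1 or without shLuci replicate 2 (-0.45 each).

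Cox6a1, the general isoform of a membrane subunit that regulates the enzyme, was at 295 and 237 FPKM in the shTex10 libraries, against 478 and 426 FPKM in the shLuci libraries (limma, log2 change -0.77, SE 0.13, adjusted p = 0.00609). This was the largest fall of the complex on the log2 scale. Cox6c measured 194 and 166 FPKM in the shTex10 libraries, against 269.6 and 257 FPKM in the shLuci libraries (limma, log2 change -0.55, SE 0.11, adjusted p = 0.00860), and Cox7a2 measured 104 and 92.4 FPKM in the shTex10 libraries, against 146 and 139 FPKM in the shLuci libraries (limma, log2 change -0.53, SE 0.10, adjusted p = 0.00751). Cox7c, one of the most abundant members, was at 691 and 677 FPKM in the shTex10 libraries, against 913 and 958 FPKM in the shLuci libraries (limma, log2 change -0.45, SE 0.088, adjusted p = 0.00860), although 19.7% of its transcript is shared with the annotated loci Gm10012 and Gm12338. Cox7b was at 104 and 121 FPKM in the shTex10 libraries, against 143 and 149 FPKM in the shLuci libraries (limma, log2 change -0.38, SE 0.11, adjusted p = 0.0286), a call lost without shTex10 replicate 1 (-0.27) or shLuci replicate 2 (-0.35). Cox4i1 and Cox8a did not pass. Cox4i1, which assembles early onto the catalytic core, was at 941 and 883 FPKM in the shTex10 libraries, against 975 and 817 FPKM in the shLuci libraries (limma, log2 change 0.031, SE 0.12, adjusted p = 0.840), and Cox8a was at 229 and 239.7 FPKM in the shTex10 libraries, against 246 and 259 FPKM in the shLuci libraries (limma, log2 change -0.11, SE 0.087, adjusted p = 0.336).

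Cox6b2 was the only member called higher. It encodes the testis isoform of subunit 6b, which closes the dimer on the intermembrane side, and lies on mm9 chromosome 7, 4702051 to 4704696 (row XLOC_024573). It measured 79.6 and 83.3 FPKM in the shTex10 libraries, against 44.0 and 42.1 FPKM in the shLuci libraries, with both knockdown libraries well above both controls (limma, log2 change 0.90, SE 0.086, adjusted p = 0.000910). Its mean was 81.5 ± 2.63 FPKM in shTex10 and 43.1 ± 1.37 FPKM in shLuci (SD, n = 2 each), 1.89-fold higher in shTex10. The general isoform Cox6b1 was at 222 and 209.7 FPKM in the shTex10 libraries, against 264 and 258 FPKM in the shLuci libraries (limma, log2 change -0.27, SE 0.086, adjusted p = 0.0429), a call lost when any 1 library was left out (-0.31 to -0.23), and its log2 change was 0.086 after quantile normalization. Cox6b2 therefore made up 26.4% and 28.4% of the FPKM of both 6b genes in shTex10, against 14.3% and 14.0% in shLuci, a share that a common factor for a library cannot change. By exact permutation of the 4 libraries, two-sided, p was 0.333, the smallest that this design allows.

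Markers of other cells were read beside this rise, because Cox6b2 is best known from male germ cells. Of 6 male germ cell markers, Tnp1, Prm1 and Acrv1 were under 1 FPKM in every library, and 0 of the 3 tested were called. Their summed level was 30.8 and 39.6 FPKM in shTex10, against 27.8 and 37.7 FPKM in shLuci. Markers of the 2-cell-like state, which resembles the early embryo, summed to 371 and 410.1 FPKM in shTex10, against 49.6 and 56.8 FPKM in shLuci, with 4 of 4 tested called higher and Tcstv1 and Tcstv3 under 1 FPKM throughout. Trophectoderm markers summed to 305 and 296 FPKM in shTex10, against 136 and 136 FPKM in shLuci. Nearly all of this was Krt8, at 293.7 and 283.7 FPKM in shTex10, against 131.8 and 131.6 FPKM in shLuci. The 3 tested, Krt8, Eomes and Gata3, were all called higher. Cdx2 was too low to be tested, at 1.49 and 1.43 FPKM in shTex10, against 0.332 and 0.460 FPKM in shLuci. Elf5 was under 1 FPKM. Of 4 primitive endoderm markers, Gata6, Gata4 and Sox17 were under 1 FPKM in every library. Dab2 was called higher, at 3.04 and 3.54 FPKM in shTex10, against 1.19 and 1.38 FPKM in shLuci. The part of these cell states in the rise of Cox6b2, or in the falls, was not tested.

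The other tissue isoforms of complex IV were scarce and did not pass. Cox7a1, the heart and muscle isoform of subunit 7a, was at 23.2 and 25.7 FPKM in the shTex10 libraries, against 25 and 25.1 FPKM in the shLuci libraries (limma, log2 change -0.036, SE 0.094, adjusted p = 0.768). Cox7b2, a testis isoform, was at 4.12 and 3.12 FPKM in the shTex10 libraries, against 2.77 and 3.40 FPKM in the shLuci libraries (limma, log2 change 0.17, SE 0.14, adjusted p = 0.351). Cox4i2, the lung isoform of subunit 4, was at 1.70 and 0.686 FPKM in the shTex10 libraries, against 1.96 and 1.29 FPKM in the shLuci libraries. All 3 overlapped between groups, and Cox4i2 was called lower without shTex10 replicate 1 (-0.63) or shLuci replicate 2 (-0.47). Cox6a2, Cox8b and Cox8c had means under 1 FPKM and were not tested. Their highest values were 0.45 FPKM for Cox6a2 (shTex10 replicate 1), 0.384 FPKM for Cox8b (shLuci replicate 2) and 0.548 FPKM for Cox8c (shLuci replicate 2). The muscle markers Myh6, Myh7, Actc1 and Tnnt2 were likewise under 1 FPKM in every library. The 7 muscle markers summed to 21.4 and 20.7 FPKM in shTex10, against 12.3 and 9.54 FPKM in shLuci. Of the 3 tested, Ckm and Myl2 were called higher and Acta1 was not called. Ckm was at 7.63 and 6.71 FPKM in shTex10, against 0.331 and 0.191 FPKM in shLuci. Myl2 was at 1.46 and 2.45 FPKM in shTex10, against 0.407 and 0.753 FPKM in shLuci. The part of muscle genes was not tested. Cox7a2l, which joins complexes III and IV into supercomplexes, was at 81.3 and 100.3 FPKM in the shTex10 libraries, against 92.8 and 135 FPKM in the shLuci libraries, with overlapping groups (limma, log2 change -0.30, SE 0.20, adjusted p = 0.245). It was called lower without shTex10 replicate 2 (-0.45) or shLuci replicate 1 (-0.57).

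**Figure D3:**
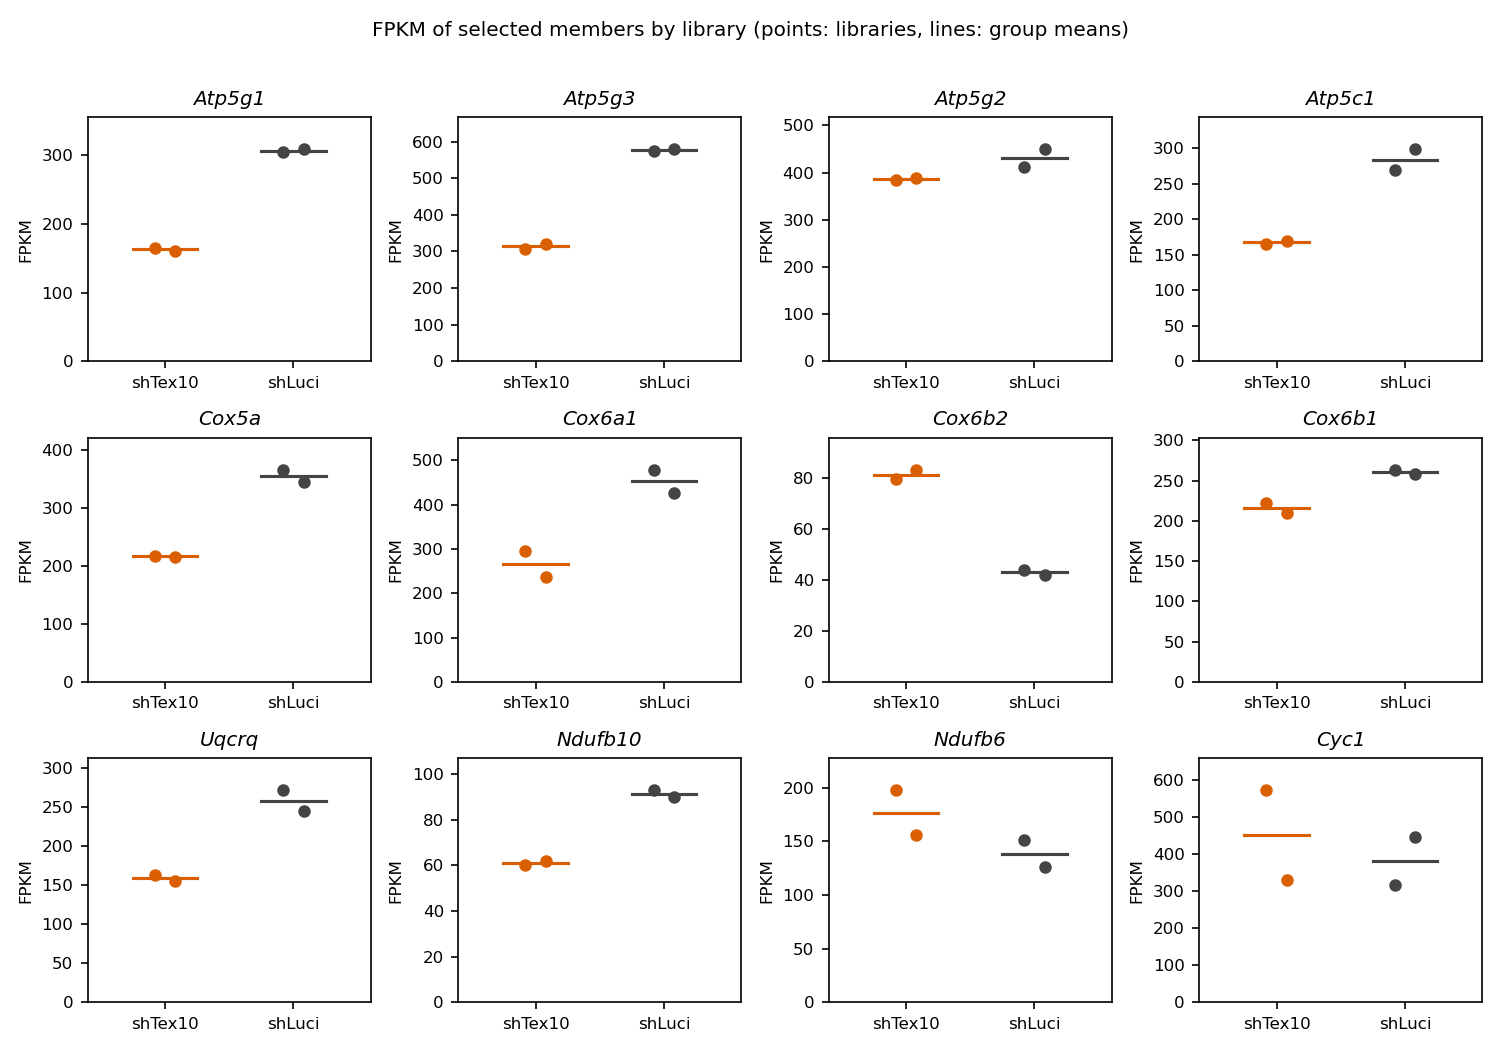
FPKM (y axis) of 12 members in each library (points) with group means (lines), each panel starting at 0. The shTex10 libraries lie clearly under the shLuci libraries for Atp5g1, Atp5g3, Atp5c1, Cox5a, Cox6a1, Uqcrq and Ndufb10 and above them for Cox6b2, while those of Cyc1 interleave.

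Complex V, the ATP synthase, held the largest falls and the most abundant member. All 17 genes were tested, with 12 falls (70.6%), 0 rises and 5 without a call. Over all genes 31.8% were called lower, and over other genes of at least 50 FPKM 50.6%. The median log2 change was -0.41 as deposited, -0.18 after rescaling to the same named sum and -0.061 after quantile normalization. Of the 5 that did not pass, Atp5s and Atp5sl match the name rule without being subunits of the enzyme. Atp5s, the gene of coupling factor B, was at 5.71 and 7.17 FPKM in the shTex10 libraries, against 3.59 and 5.04 FPKM in the shLuci libraries (limma, log2 change 0.49, SE 0.17, adjusted p = 0.0546), and Atp5sl, an assembly factor of complex I, kept 88.0% of its control level. All 15 subunit genes averaged over 100 FPKM across the 4 libraries.

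All 5 genes of the F1 head, which makes ATP, fell, against 31.8% of all genes and 50.6% of other genes of at least 50 FPKM. After the named-sum rescaling 2 of the 5 were called lower, and after quantile normalization 1, where all genes gave 16% and 24.5%. Atp5b, the catalytic beta subunit and the most abundant member of the whole set, measured 956 and 882 FPKM in the shTex10 libraries, against 1264 and 1199 FPKM in the shLuci libraries (limma, log2 change -0.42, SE 0.095, adjusted p = 0.0139). Atp5a1, the alpha subunit, was at 386 and 387 FPKM in the shTex10 libraries, against 579.8 and 551 FPKM in the shLuci libraries (limma, log2 change -0.55, SE 0.086, adjusted p = 0.00432). Both kept the groups apart, with more of Atp5b than of Atp5a1 in every library. Atp5c1, the gamma subunit that turns inside the head, fell further, at 165 and 169.6 FPKM in the shTex10 libraries, against 269 and 299 FPKM in the shLuci libraries (limma, log2 change -0.76, SE 0.094, adjusted p = 0.00202), and 59.0% of its control mean remained. Atp5d, the delta subunit of the central stalk, was at 110.2 and 97.2 FPKM in the shTex10 libraries, against 158 and 125 FPKM in the shLuci libraries (limma, log2 change -0.44, SE 0.14, adjusted p = 0.0435), and Atp5e, the epsilon subunit, kept 77.8% of its control mean. The call of Atp5b was lost without shTex10 replicate 2 (-0.36) or shLuci replicate 1 (-0.38), as was that of Atp5d (-0.35 and -0.27). That of Atp5e (limma, log2 change -0.36, SE 0.11, adjusted p = 0.0366) was lost without shTex10 replicate 1 or shLuci replicate 2. It was also lost after the same-median, named-sum and quantile scalings.

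Of the 4 peripheral stalk genes, which hold the head against rotation, Atp5h, Atp5j and Atp5o fell, to between 75.2% and 76.0% of their control means. The call of Atp5h was lost without shLuci replicate 1 and that of Atp5j without shLuci replicate 2. That of Atp5o was lost without shTex10 replicate 2 or shLuci replicate 2. After the named-sum rescaling and after quantile normalization, 0 of the 4 were called lower. Atp5f1, the b subunit, did not pass (limma, log2 change -0.34, SE 0.12, adjusted p = 0.0597), and its row overlaps that of Wdr77. The row of Atp5j overlaps that of Gabpa. Among membrane subunits Atp5j2 (f) was at 226 and 218 FPKM in the shTex10 libraries, against 333 and 357 FPKM in the shLuci libraries (limma, log2 change -0.63, SE 0.089, adjusted p = 0.00298), and Atp5k (e) kept 69.8%. Atp5l (g) did not pass, at 392 and 421 FPKM in the shTex10 libraries, against 418 and 427 FPKM in the shLuci libraries. For Atp5l, 69.0% of the transcript is shared with annotated copies such as Gm10221 and Atp5l-ps1, the highest share among the members, and its value is uncertain.

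The c ring, which rotates as protons pass, split its 3 genes. Atp5g1, Atp5g2 and Atp5g3 encode the same mature subunit c behind different import sequences, so their transcripts feed the same protein. Atp5g1 (row XLOC_004703, mm9 chromosome 11, 95934107 to 95937008) was at 166 and 161 FPKM in the shTex10 libraries, against 305 and 309 FPKM in the shLuci libraries (limma, log2 change -0.90, SE 0.083, adjusted p = 0.000808). Atp5g3 (row XLOC_015752, mm9 chromosome 2, 73746507 to 73749351) was at 307 and 321 FPKM in the shTex10 libraries, against 574 and 579 FPKM in the shLuci libraries (limma, log2 change -0.87, SE 0.085, adjusted p = 0.000956). These were the largest falls among the members on the log2 scale, to 53.3% and 54.5% of the control means, and in both the replicates were close. Atp5g2 (row XLOC_010028, mm9 chromosome 15, 102493299 to 102501478) was at 385 and 389 FPKM in the shTex10 libraries, against 411 and 449 FPKM in the shLuci libraries. The transcripts of Atp5g1 and Atp5g2 share 6.22% and 4.28% of their stretches with other loci, and that of Atp5g3 shares 0. The Atp5g1 transcript used here has 4715 bases, more than the 2902 bp of its row. The share within the transcript that the row measured is therefore unknown and can be higher. Atp5g2 did not pass as deposited (limma, log2 change -0.15, SE 0.091, adjusted p = 0.211) and was called higher after quantile normalization (log2 change 0.26).

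The share of Atp5g2 in the FPKM of the 3 c genes, which a common factor per library cannot change, was 44.9% and 44.6% in shTex10, against 31.9% and 33.6% in shLuci. The order of the 3 genes thus changed: Atp5g2 was the highest in both shTex10 libraries, while Atp5g3 was the highest in both shLuci libraries, and Atp5g1 was the lowest in all 4. The summed level of the 3 genes was 858 and 871 in the shTex10 libraries, against 1291 and 1337 in the shLuci libraries, so 65.8% of the control mean remained. An exact two-sided permutation test gave p = 0.333 for the share and for the sum, the smallest it can give.

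The promoters of the c genes, whose values split, and of both 6b isoforms, which moved in opposite directions as deposited, are given so that the sequence before each start can be read beside the values. Each runs from 250 bases before to 50 bases after the start, 5′ to 3′ on the gene's strand, from RefSeq on GRCm38.p6, a later build than the mm9 of the tables. Capitals mark every match, on either strand, to the motifs of 5 factors: the palindromic NRF1 motif or its core GCATGCGC, CCGGAAG (ETS factors such as GABPA), AAGGTCA (ERR), AAGATGGC (YY1) and GGGCGG (SP1).
Atp5g1, chr11:96075582-96075881, minus strand: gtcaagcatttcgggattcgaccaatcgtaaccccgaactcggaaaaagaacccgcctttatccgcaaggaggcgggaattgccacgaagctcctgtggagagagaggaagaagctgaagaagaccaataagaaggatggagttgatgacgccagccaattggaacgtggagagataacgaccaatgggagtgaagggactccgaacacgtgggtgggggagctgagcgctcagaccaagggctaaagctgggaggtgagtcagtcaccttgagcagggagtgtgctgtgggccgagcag
Atp5g3, chr2:73911277-73911576, minus strand: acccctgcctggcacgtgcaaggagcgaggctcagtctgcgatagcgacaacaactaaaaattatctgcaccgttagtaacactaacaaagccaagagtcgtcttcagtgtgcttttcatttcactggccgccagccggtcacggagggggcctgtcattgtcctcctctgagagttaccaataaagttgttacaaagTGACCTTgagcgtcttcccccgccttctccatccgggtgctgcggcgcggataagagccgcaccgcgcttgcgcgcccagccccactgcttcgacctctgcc
Atp5g2, chr15:102670998-102671297, minus strand: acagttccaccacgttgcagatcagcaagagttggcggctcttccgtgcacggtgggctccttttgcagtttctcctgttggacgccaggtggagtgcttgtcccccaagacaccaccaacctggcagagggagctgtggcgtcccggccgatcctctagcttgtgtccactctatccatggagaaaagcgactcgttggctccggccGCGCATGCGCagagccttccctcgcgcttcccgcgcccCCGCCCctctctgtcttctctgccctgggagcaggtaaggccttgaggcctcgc
Cox6b2, chr7:4753045-4753344, minus strand: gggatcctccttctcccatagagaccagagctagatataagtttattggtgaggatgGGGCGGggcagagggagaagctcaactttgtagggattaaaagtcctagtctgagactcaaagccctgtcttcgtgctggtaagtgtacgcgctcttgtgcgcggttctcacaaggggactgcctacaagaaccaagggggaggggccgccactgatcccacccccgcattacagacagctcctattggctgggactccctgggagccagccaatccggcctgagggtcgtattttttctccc
Cox6b1, chr7:30626065-30626364, minus strand: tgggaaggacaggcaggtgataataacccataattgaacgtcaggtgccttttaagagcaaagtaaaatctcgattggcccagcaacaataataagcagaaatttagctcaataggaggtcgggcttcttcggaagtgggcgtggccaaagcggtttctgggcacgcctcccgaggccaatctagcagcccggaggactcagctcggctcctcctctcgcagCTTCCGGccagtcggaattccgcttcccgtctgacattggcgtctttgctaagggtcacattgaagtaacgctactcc
The window of Atp5g2, the c gene that did not pass, holds the full NRF1 motif and an SP1 motif. That of Atp5g3 holds an ERR motif, and that of Atp5g1 holds none of these letters. Cox6b2 has an SP1 motif and Cox6b1 an ETS motif.

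Across the set, 66 of the 80 members matched a promoter, with 72 windows in all because some have several starts. Those without one included Atp5a1, Cox4i1, Cox4i2, Cox6a2, Cox6c, Cox8c, Cyc1, Ndufa2, Ndufb9, Ndufs1, Uqcrb, Uqcrc2 and Uqcrq. The full NRF1 motif occurred in 5 of these windows (6.94%), against 0.971% of all 32851 windows in the table, and its core in 9 (12.5% against 2.71%), which includes every window with the full motif. The ETS motif occurred in 19.4% of member windows and 8.86% of all, the YY1 motif in 16.7% and 2.75%, the ERR motif in 9.72% and 4.72%, and the SP1 motif in 37.5% and 35.7%. Members with the full NRF1 motif were Atp5g2, Atp5k, Cox6a1, Ndufa11 and Uqcrc1, of which Atp5k, Cox6a1 and Uqcrc1 fell. Among all tested members 54.5% were called lower, and a link between the motif and the falls was not tested. These are matches of letters, not measured binding.

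Levels were also summed over the genes of each complex. The FPKM sum of complex I was 3675 and 3638 in the shTex10 libraries, against 4119 and 4234 in the shLuci libraries, so 87.5% of the mean remained. That of complex III was 1779 and 1523 in the shTex10 libraries, against 1935 and 2117 in the shLuci libraries (81.5%), and that of complex IV was 3399.9 and 3218 in the shTex10 libraries, against 4222 and 4009 in the shLuci libraries (80.4%), and these 2 percentages differed by less than the spread between libraries. Complex V summed to 4445 and 4360.4 in the shTex10 libraries, against 6065 and 6069 in the shLuci libraries (72.6%). For every complex both knockdown libraries lay under both control libraries as deposited, and after the named-sum rescaling the sum of complex I was 1.03 times its control mean.

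Ratios between complexes do not depend on a common factor per library. The sum of complex V relative to complex I in the same library was 1.21 and 1.20 in the shTex10 libraries, against 1.47 and 1.43 in the shLuci libraries. The groups were apart and the mean ratio in shTex10 was 0.829 times that in shLuci, between 0.818 and 0.840 with any 1 library left out. Complex IV relative to complex I was 0.925 and 0.885 in the shTex10 libraries, against 1.02 and 0.947 in the shLuci libraries, also apart. Complex III relative to complex I was 0.484 and 0.419 in the shTex10 libraries, against 0.470 and 0.50 in the shLuci libraries, and here the groups overlapped, and Cyc1 was the member of the sum with the widest spread. Exact two-sided permutation tests gave p = 0.333 for the ratios of complexes IV and V and p = 0.667 for complex III. Of the named FPKM, the members together took 2.53% and 2.37% in shTex10, against 2.66% and 2.60% in shLuci.

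**Figure D4:**
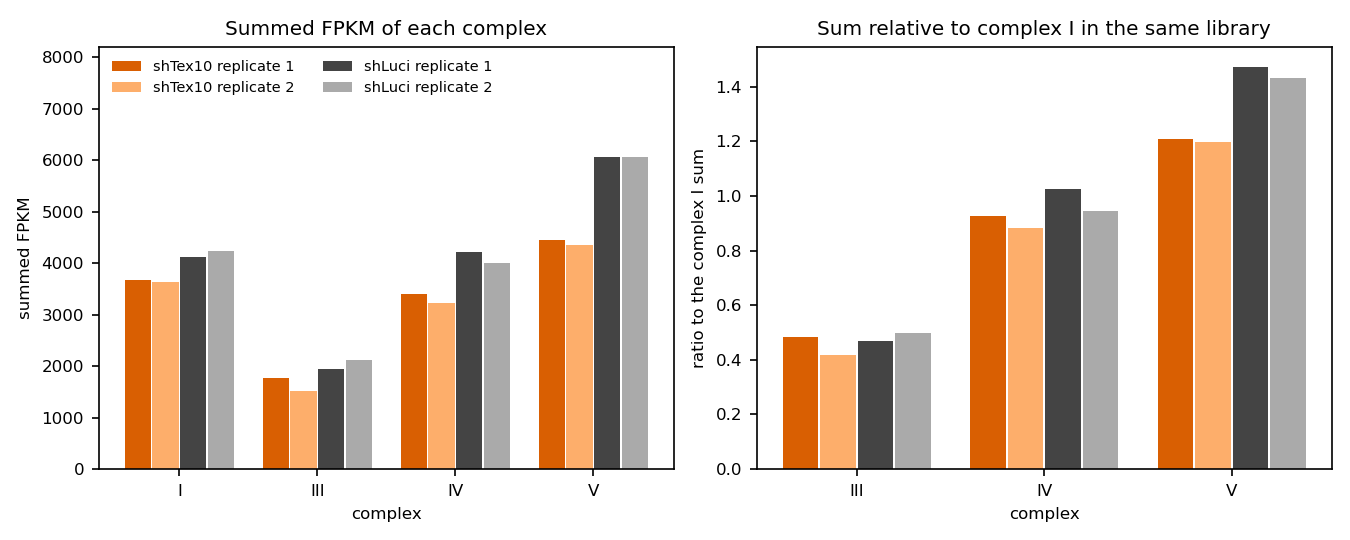
Left, summed FPKM of the genes of each complex in each library. Right, the sum of complexes III, IV and V divided by that of complex I in the same library. The orange bars of shTex10 are under the grey bars of shLuci in every group except complex III on the right, where they overlap, and the ratio of complex V is 1.21 and 1.20 in shTex10, against 1.47 and 1.43 in shLuci.

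Other mitochondrial genes, taken from lists written from general knowledge, were also mostly lower. All 4 subunit genes of complex II, succinate dehydrogenase, which has no mitochondrially encoded part, fell, at a median log2 change of -0.58, and all 4 were also called lower after the named-sum rescaling and after quantile normalization. Sdhd, a membrane anchor, was at 67.4 and 64.1 FPKM in the shTex10 libraries, against 113 and 102 FPKM in the shLuci libraries (limma, log2 change -0.70, SE 0.095, adjusted p = 0.00266). Sdhc, the other anchor, had a log2 change of -0.54 and Sdha, the flavoprotein, of -0.60. Of 18 enzymes of the TCA cycle and its entry, 14 fell (77.8%, against 31.8% of all genes), 0 rose and 4 did not pass. Their median was -0.39. After the named-sum rescaling 6 of the 18 (33.3%, against 16% of all genes) were called lower. After quantile normalization 5 were (27.8%, against 24.5% of all genes). Idh2, mitochondrial isocitrate dehydrogenase, was at 50.6 and 46.5 FPKM in the shTex10 libraries, against 88.3 and 85.5 FPKM in the shLuci libraries, and Suclg2 and Pdha1 had log2 changes of -0.71 and -0.56.

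Assembly factors build the complexes without staying in them. For complex I, 6 of 14 (42.9%) fell and 1, Acad9, rose (median -0.41). Ecsit was at 12 and 11.2 FPKM in the shTex10 libraries, against 22.2 and 21.5 FPKM in the shLuci libraries (limma, log2 change -0.86, SE 0.09, adjusted p = 0.00122), and Ndufaf2 and Ndufaf6 had log2 changes of -0.84 and -0.57. For complex III, 2 of 4 fell, Uqcc and Mnf1, and Bcs1l, which inserts the Rieske protein, did not pass. The call of Mnf1 was lost without shTex10 replicate 2 or shLuci replicate 1 (-0.34 each), and Bcs1l was called lower without shTex10 replicate 1 (-0.39). For complex IV, 6 of 20 (30.0%) were called lower and 0 higher, against 31.8% lower over all genes (median -0.21), with Cox15, a heme A synthase, at 8.85 and 8.72 FPKM in the shTex10 libraries, against 17.5 and 18 FPKM in the shLuci libraries. Cox19 and Coa5 had log2 changes of -0.54 and -0.41. The call of Coa5 was lost without shLuci replicate 1 (-0.39). For complex V, 0 of 3 fell and 1 rose: Tmem70 was at 22.3 and 25.7 FPKM in the shTex10 libraries, against 17.3 and 18.7 FPKM in the shLuci libraries (limma, log2 change 0.40, SE 0.11, adjusted p = 0.0255), while Atpaf1 and Atpaf2 did not pass. The call of Tmem70 was lost without shTex10 replicate 2 (0.30) or shLuci replicate 1 (0.34).

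Genes that import proteins or make the mitochondrial gene products were also read. Of 21 import genes 15 (71.4%) fell and 0 rose (median -0.54), among them Tomm40, the channel of the outer membrane, Tomm5 and the chaperonin gene Hspd1, with log2 changes of -0.97, -0.95 and -0.99. Of 72 mitochondrial ribosomal protein genes 41 (56.9%) fell and 0 rose (median -0.33). Mrps12 was at 19.8 and 20.5 FPKM in the shTex10 libraries, against 49.0 and 45.9 FPKM in the shLuci libraries, and Mrpl12 and Mrps26 had log2 changes of -1.10 and -0.81. Of 15 genes of mitochondrial DNA transcription and replication 7 (46.7%) fell and 0 rose, with Polg2, Ssbp1 and Slirp at log2 changes of -0.67, -0.63 and -0.45. The call of Slirp was lost without shLuci replicate 2 (-0.38). In the cytosolic ribosome, another abundant set of short transcripts, 20 of 79 genes (25.3%) were called lower and 1, Rps27l, higher, a share of lower calls under that of all genes (31.8%) and of other genes at 50 FPKM or more (50.6%) (median -0.19), with Rpl3, Rpl10a and Rps29 at -0.76, -0.55 and -0.47. After the named-sum rescaling 11 import genes (52.4%) and 16 mitochondrial ribosomal protein genes (22.2%) were called lower, where all genes gave 16%. After quantile normalization these counts were 10 (47.6%) and 20 (27.8%), where all genes gave 24.5%. For cytosolic ribosomal proteins these rescalings called 2 and 1 lower and 3 and 9 higher, and their median turned to 0.035 after the named-sum rescaling. Differences between these lists were not tested.

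Regulators that act on nuclear OXPHOS genes in mammals were also read. Of 11 tested, 9 fell (81.8%, against 31.8% of all genes), 0 rose and 2, Gabpb1 and Esrra, did not pass. The median was -0.44. The named-sum rescaling called 3 of them lower (27.3%, against 16% of all genes) and quantile normalization 4 (36.4%, against 24.5%). Nrf1, nuclear respiratory factor 1, was at 32.0 and 32.6 FPKM in the shTex10 libraries, against 43.9 and 44.4 FPKM in the shLuci libraries (limma, log2 change -0.44, SE 0.083, adjusted p = 0.00784). Gabpa, the DNA-binding subunit of nuclear respiratory factor 2, was at 33.7 and 37.3 FPKM in the shTex10 libraries, against 48.3 and 55.2 FPKM in the shLuci libraries (limma, log2 change -0.53, SE 0.11, adjusted p = 0.0102). Creb1, Myc and Pprc1, a coactivator, had the smallest p of this list, with log2 changes of -0.74, -0.76 and -0.72. Esrra was at 10.5 and 8.27 FPKM in the shTex10 libraries, against 9.23 and 7.11 FPKM in the shLuci libraries (limma, log2 change 0.18, SE 0.16, adjusted p = 0.379). Ppargc1a, the best known coactivator of this system in muscle and brown fat, reached at most 0.022 FPKM in any library and was not tested.

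**Figure D5:**
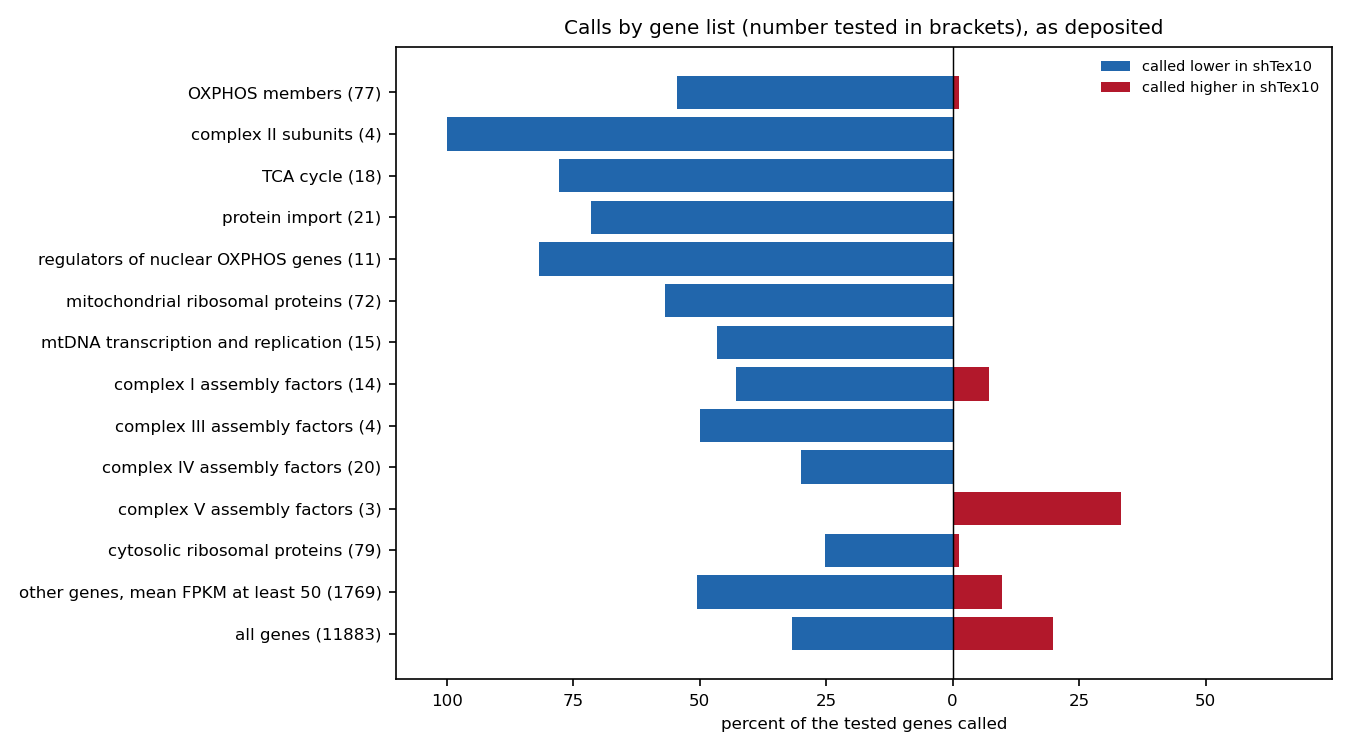
Percent of the tested genes of each list called lower (blue, to the left) or higher (red, to the right) in shTex10, with the number tested in brackets. The OXPHOS members, at 54.5% called lower, lie near the other genes of at least 50 FPKM (50.6%) and above all genes (31.8%), and the list of complex V assembly factors has no blue bar.

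By position, the members lie on 19 chromosomes and few are neighbours. Gaps of at most 200000 bp in mm9 lay between Atp5d and Ndufs7 and between Ndufs7 and Uqcr11 on chromosome 10. All 3 of these genes fell. Another such gap lay between Ndufs8 and Ndufv1 on chromosome 19, of which Ndufs8 fell. The longest coding transcript in GENCODE vM21 shares no exact 100-base stretch with another gene for 52 of the 80 members, and shares at least 10% of such stretches for 16. Across the 77 tested members, Spearman's rho between log2 change and transcript length was -0.12, and that between log2 change and mean level was -0.28, as it was across all genes tested (-0.28). These points share the same 4 libraries and are descriptions only.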

How the data were processed

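Poly(A)-selected RNA of 4 libraries was sequenced as single ends, per the labels' protocols. TopHat2 (2.0.10), Bowtie2 (2.1.0) and Cufflinks (2.1.1) on mm9 are named by the submitters' processing notes. How they were run, with which annotation and whether by strand is not given in the sources used here. Values as the authors deposited them are FPKM per row and library, not pooled, with no read totals, so no counting intervals are given.

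Rows that share a gene name were summed and samples were grouped by the labelled hairpin. limma 3.58.1 (R 4.3.3) compared the groups on log2(FPKM + 1) over genes averaging at least 1 FPKM (eBayes with a trend, no block, Benjamini-Hochberg threshold 0.05). A fold change on this scale understates that of low genes. Alternatives numbered 16: pseudocounts, filters, scalings, variance models, a replicate block, the highest row per name and leaving out each library. Tables were read with Python 3.11.15.

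Members and lists were chosen with earlier results of these data known. Values per library are given for the 4 called members of smallest p in each direction and complex, the most abundant member and the lowest called member of each, isoform sets, core and catalytic subunits, and the first 3 by p in each related list. Genes named besides these, the ratios, the shares and the set of genes of at least 50 FPKM were chosen after the data were seen. Of the members, 1 is included in the counts, medians and sums but is not reported here by itself.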

Additional observations from a re-analysis of the deposited data

How the results depend on the processing

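Counts and medians depended mainly on how the libraries were scaled, and the cause was not tested. After rescaling to the same sum over named genes, 20 members were called, 13 lower and 7 higher. The lower calls were 1 in complex I, 4 in complex III, 2 in complex IV and 6 in complex V, and the medians were -0.11 for members, -0.0076 for I, -0.31 for III, -0.079 for IV and -0.18 for V. Quantile normalization called 17 members, 7 lower and 10 higher, with 1, 2, 1 and 3 lower calls in I, III, IV and V and medians of -0.049 for members, 0.00059 for I, -0.19 for III, -0.033 for IV and -0.061 for V. It turned the sign of 19 members, among them Atp5g2 (0.26), Cox6b1 (0.086), Cox8a (0.27) and Atp5l (0.33), and the named-sum rescaling turned that of 17. Rescaling to the same median called 7 members lower in complex I and 3 members higher, with medians of -0.26 for members, -0.16 for I, -0.47 for III, -0.24 for IV and -0.34 for V. Setting libraries to an equal total over all rows called 0 members in any complex or direction, while the median of the members stayed at -0.33. Related lists had 131 calls as deposited, 62 after the named-sum rescaling, 0 after the all-row rescaling and 75 after quantile normalization. Ratios of summed FPKM after the named-sum rescaling were 1.03 for I, 0.956 for III, 0.942 for IV and 0.850 for V, after the same-median rescaling 0.918 for I, 0.843 for IV and 0.761 for V, and after the all-row rescaling 0.859 for I and 0.710 for V.

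Replicate numbers were not shown to pair the libraries: with 2 pairs, deviations of equal numbers correlated at 0.33 over 11883 genes and at 0.55 over the 77 members. With the replicate number as a block, 58 members (75.3%) were called lower and 6 (7.79%) higher, where all genes gave 48.0% lower and 27.0% higher. With the same block, other genes of at least 50 FPKM gave 70.4% lower and 15.1% higher. Lower calls with the block were 25 in complex I and 11 in complex IV, and related lists had 216 calls. Leaving out 1 library gave 32 to 35 members called, 29 to 33 lower and 2 to 3 higher. Lower calls ran from 6 to 10 in complex I, 6 to 6 in III, 7 to 7 in IV and 9 to 12 in V, and related lists had 93 to 107. Medians ran from -0.34 to -0.32 for members, -0.29 to -0.23 for I, -0.58 to -0.47 for III, -0.35 to -0.23 for IV and -0.46 to -0.39 for V. Sum ratios ran from 0.864 to 0.888 for I, 0.752 to 0.878 for III, 0.782 to 0.826 for IV and 0.719 to 0.733 for V, and relative to complex I from 0.863 to 0.998 for III, 0.883 to 0.955 for IV and 0.818 to 0.840 for V. The other pseudocounts, filters and variance models and the highest row per name kept the counts of members within 1.5 times. Depth is unknown, and 2 libraries a group limit the precision.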

Other observations

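Some respiratory proteins fall outside the name rule, and 9 of those listed were tested: 5 fell (55.6%, against 31.8% of all genes), 0 rose and 4 did not pass. The named-sum rescaling called 2 of the 9 lower (22.2%, against 16% of all genes), and quantile normalization 3 (33.3%, against 24.5%). Cytochrome c itself, encoded by Cycs and carrying electrons between complexes III and IV, was at 42.3 and 50.01 FPKM in the shTex10 libraries, against 55.9 and 71.4 FPKM in the shLuci libraries (limma, log2 change -0.45, SE 0.15, adjusted p = 0.0491). Its testis form Cyct was at 3.41 and 3.42 FPKM in the shTex10 libraries, against 4.30 and 5.44 FPKM in the shLuci libraries (limma, log2 change -0.41, SE 0.12, adjusted p = 0.0347), and its call was lost without shLuci replicate 2 (-0.27). Higd1a, a small protein that interacts with complex IV, was at 16.0 and 15.3 FPKM in the shTex10 libraries, against 27.1 and 24.8 FPKM in the shLuci libraries (limma, log2 change -0.69, SE 0.093, adjusted p = 0.00260). Ndufa4l2, a relative of Ndufa4 that hypoxia induces, was at 3.03 and 3.76 FPKM in the shTex10 libraries, against 5.98 and 5.98 FPKM in the shLuci libraries (limma, log2 change -0.67, SE 0.11, adjusted p = 0.00540). 2010107E04Rik also fell (log2 change -0.30).

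Those that did not pass included Ndufab1, the acyl carrier protein of complex I, at 124 and 127 FPKM in the shTex10 libraries, against 138 and 129 FPKM in the shLuci libraries (limma, log2 change -0.09, SE 0.087, adjusted p = 0.422), and Atpif1, the inhibitor of ATP synthase, at 240.5 and 246 FPKM in the shTex10 libraries, against 246 and 317 FPKM in the shLuci libraries. Usmg5, a small subunit of ATP synthase, was at 222 and 303 FPKM in the shTex10 libraries, against 249 and 399 FPKM in the shLuci libraries, with overlapping groups, and Higd2a was at 59.2 and 52.1 FPKM in the shTex10 libraries, against 59.6 and 52.5 FPKM in the shLuci libraries.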
